A study of Mus musculus with 2 samples.

Results

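A group of 9 genes that the liver switches between the fed and the fasted state was examined, in liver RNA of mice fed the plant steroidal sapogenin diosgenin. They were Pck1, G6pc, Ppargc1a, Pdk4, Fgf21, Foxo1, Irs2, Sik1 and Crem, chosen by name, and every probe set annotated with a single gene symbol that is one of these was taken. This gave 22 of the 45101 probe sets of the array and 9 of the 18194 genes that had such a probe set. The mice were of the outbred ICR stock and carried no engineered allele that the labels mention. The control group had the basal diet CRF-1, and the diosgenin group had CRF-1 with 500 ppm diosgenin for 4 weeks from the age of 9 weeks, so both were 13 weeks old at collection. Each diet was measured once, on an Affymetrix array of RNA pooled from the livers of 3 mice, so there were no replicates and no test was possible. Every difference below is one between 2 pools. Both groups ate ad libitum, and neither the hour of collection nor the time since the last meal is given in the labels. The mice were housed 3 to a cage, and how cages were divided between the diets is not stated either.

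Between meals, glucagon raises cyclic AMP in hepatocytes, and the transcription factor CREB and its CRTC coactivators switch on genes for glucose production. Insulin after a meal acts through the adaptor proteins IRS1 and IRS2 and the kinase AKT, which moves the transcription factor FOXO1 out of the nucleus and so lowers its targets. Each of the 9 genes is known as one whose liver transcript is raised by fasting, by glucagon or by loss of insulin action. Some of them also answer to other signals.

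On these arrays the 9 genes were not all on the same side of the control. Of the 7 whose mean signal passed the filter described next, 3 were higher on the diosgenin array and 4 lower. Their median log2 ratio was −0.01, the same to 2 decimals as that of all 9732 genes above the filter. Ppargc1a was 1.83-fold higher and Pdk4 2.83-fold lower. Pck1 was 1.23-fold higher and Sik1 1.40-fold lower, while G6pc, Foxo1 and Crem were within 1.06-fold of the control. Fgf21 and Irs2 were too dim for the filter. With the signal floor described next, Fgf21 stood at least 2.57-fold higher, and Irs2 was 1.27-fold lower.

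A signal here is the deposited brightness of a probe set, on a linear scale in arbitrary units. Signals under a floor of 10.7 were set to it before log2 was taken, and a gene was read from its probe set with the highest mean signal and kept where that mean reached 28.4. A ratio is always diosgenin over control. At 1.5-fold or more, 1 of the 7 genes was higher, Ppargc1a, where 2.84% of all genes above the filter were, and 1 was lower, Pdk4, where 3.61% were. Of the 12 probe sets of these genes above the filter, 1 was at least 1.5-fold higher and 1 lower, against 3.25% and 4.00% of all 16259 such probe sets with 1 symbol. Between probe sets above the filter that read 1 gene, log2 ratios differed with a standard deviation of 0.28, which holds no spread between mice. Probe sets under the filter did not enter it. In the plot of all probe sets, 16 of the 22 had both signals above the floor, 3 had 1 signal under it and 3 had both under it.

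**Figure D1:**
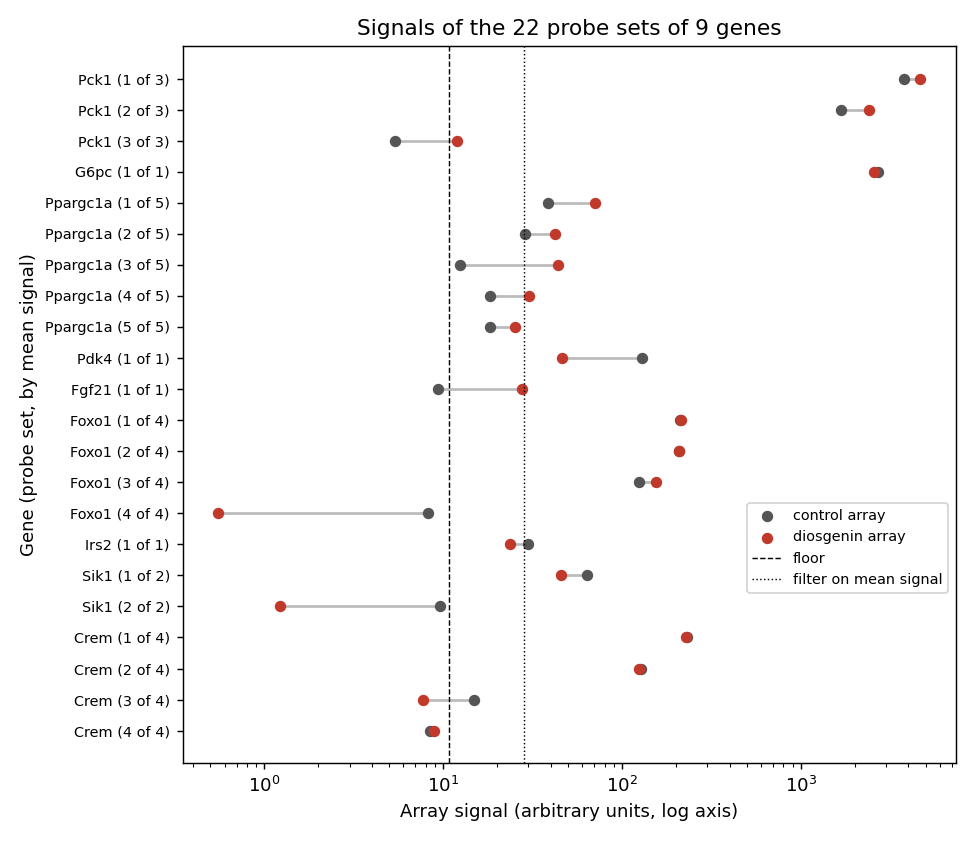
Signals of the 22 probe sets of the 9 genes on the control array (grey) and the diosgenin array (red), on a log axis in arbitrary units, with each gene's probe sets ordered by mean signal. The dashed line is the floor of 10.7 and the dotted line the filter of 28.4 on the mean of both arrays; the 5 Ppargc1a probe sets all lie to the right on the diosgenin array, and the Pdk4 probe set lies to the left.

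Promoter sequence was set beside the values for the genes that stood farthest apart, Ppargc1a, Pdk4 and Fgf21, and for both gluconeogenic enzymes. The RefSeq table of mouse promoters, build GRCm38.p6, held 7 of the 9 genes, with no entry used for Sik1 and Crem. The 250 bases before each annotated start are printed 5′ to 3′ on the gene's own strand, and capitals mark every match to the motifs searched on both strands. The annotated Ppargc1a gene reaches further upstream, so its window belongs to 1 of several starts.
Pck1, chr2:173152823-173153072, plus strand: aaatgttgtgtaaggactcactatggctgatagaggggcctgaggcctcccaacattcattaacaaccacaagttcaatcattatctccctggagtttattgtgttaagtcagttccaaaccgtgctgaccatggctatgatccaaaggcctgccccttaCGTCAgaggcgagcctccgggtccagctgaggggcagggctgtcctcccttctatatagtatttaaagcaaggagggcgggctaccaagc
G6pc, chr11:101367466-101367715, plus strand: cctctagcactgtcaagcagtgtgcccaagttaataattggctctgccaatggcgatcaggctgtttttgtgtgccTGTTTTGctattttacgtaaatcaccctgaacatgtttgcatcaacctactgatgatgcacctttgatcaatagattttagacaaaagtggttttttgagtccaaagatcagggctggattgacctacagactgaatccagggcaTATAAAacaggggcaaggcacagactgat
Ppargc1a, chr5:51567726-51567975, minus strand: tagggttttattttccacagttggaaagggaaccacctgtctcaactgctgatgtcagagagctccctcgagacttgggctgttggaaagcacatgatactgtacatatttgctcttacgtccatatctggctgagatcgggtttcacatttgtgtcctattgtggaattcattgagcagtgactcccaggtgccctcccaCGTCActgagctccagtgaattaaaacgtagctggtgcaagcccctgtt
Fgf21, chr7:45615491-45615740, minus strand: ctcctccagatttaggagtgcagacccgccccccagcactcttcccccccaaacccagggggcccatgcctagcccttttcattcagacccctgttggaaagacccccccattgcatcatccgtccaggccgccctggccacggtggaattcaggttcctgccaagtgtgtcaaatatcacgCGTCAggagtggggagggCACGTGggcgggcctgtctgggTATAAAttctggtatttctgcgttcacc
Pdk4, chr6:5496279-5496528, minus strand: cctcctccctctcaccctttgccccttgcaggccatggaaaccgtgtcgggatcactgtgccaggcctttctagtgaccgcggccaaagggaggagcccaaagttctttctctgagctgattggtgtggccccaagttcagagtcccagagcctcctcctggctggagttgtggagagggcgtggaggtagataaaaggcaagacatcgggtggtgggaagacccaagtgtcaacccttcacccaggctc

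The motifs were the cAMP response element TGACGTCA and the short cAMP site TGACG, which lies inside it, the forkhead site GTAAACA, the insulin response element core CAAAACA, the E-box CACGTG read by clock factors among others, the D-box TTATGTAA read by DBP and its relatives, and the TATA box TATAAA. The short cAMP site was found in Pck1, at 90 to 86 bases before the start, in Ppargc1a, at 49 to 45 bases, and in Fgf21, at 68 to 64 bases, each time on the opposite strand as CGTCA. It was in none of the G6pc, Pdk4, Foxo1 and Irs2 windows, and 17.8% of all 32851 promoter windows of this length hold it. That Pck1, Ppargc1a and Fgf21 were also higher on the diosgenin array was seen after the values were known, and a match describes letters and not a site in use. The insulin response element core was found in G6pc and Irs2 and in 5.56% of windows, the E-box in Fgf21 and Irs2 and in 6.02%, and the TATA box in G6pc and Fgf21 and in 12.4%. The full cAMP response element, the forkhead site and the D-box, in 1.55%, 3.17% and 0.819% of windows, were in none of the 7. Only exact matches were counted, so a window without a match can still hold a variant of a motif.

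The 2 gluconeogenic enzymes differed from each other. Pck1 encodes the cytosolic enzyme that makes phosphoenolpyruvate from oxaloacetate, the first committed step of glucose production from lactate and amino acids. Its brightest probe set read 3796 in the control pool and 4665 in the diosgenin pool, a log2 ratio of 0.30. The next, which ends in _s_at and can bind several transcripts, read 1686 and 2402, a log2 ratio of 0.51. The dimmest read 5.41 and 11.9, with the control under the floor. All 3 were thus higher, and among the 2433 genes in the brightest of 4 equal classes by mean signal, from 377 upwards, 12.4% were at least as far apart as the first probe set. G6pc encodes the catalytic subunit that releases free glucose from glucose 6-phosphate at the last step. Its only probe set read 2700 and 2558, a log2 ratio of −0.08, and 62.3% of genes of that class were at least as far apart.

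Ppargc1a, which encodes the coactivator PGC-1α that joins CREB signalling to FOXO1 and HNF4A at gluconeogenic genes, was higher by each of its 5 probe sets. The brightest read 38.7 in controls and 70.9 with diosgenin, a log2 ratio of 0.88. The second read 28.9 and 42.1, a log2 ratio of 0.54, and passed the filter too. The other 3 lay under the filter. A probe set ending in _x_at, which can bind other transcripts, read 12.4 and 44.0, and its neighbour from the same sequenced clone read 18.3 and 30.0. The last read 18.2 and 25.3. Across the 5, the fold ranged from 1.39 to 3.54. Of the 218 genes with 5 probe sets above the floor on both arrays, 18, or 8.26%, were higher by all 5. All the signals were dim, and in the dimmest class of genes, with means of 28.4 to 68.0, 5.3% were at least as far apart as Ppargc1a by its brightest probe set.

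Pdk4 encodes the pyruvate dehydrogenase kinase that fasting, PPARα and FOXO1 raise, and that keeps pyruvate out of the citric acid cycle and available for glucose. Its only probe set read 130 in controls and 46.1 with diosgenin, a log2 ratio of −1.50. Only 6 of the 2433 genes in its class of signal, 0.247%, were at least as far apart, Pdk4 included. It lay outside the range from −0.63 to 0.62 that held the central 95% of that class. No second probe set was there to set beside it.

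Fgf21 encodes a hormone that the liver releases in fasting under PPARα and in amino acid shortage under ATF4. Its only probe set read 9.39 in controls, under the floor, and 27.7 with diosgenin. The ratio is therefore a bound of at least 2.57-fold higher, at a mean signal of 18.5 that did not reach the filter. With log2 of the signal plus 16 in place of the floor, the log2 ratio was 0.78.

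The regulators were close to equal or modestly lower. Foxo1, the insulin-restrained transcription factor, was read at 212 and 214 by its brightest probe set, at 210 and 209 by the second and at 124 and 154 by the next. These 3 come from the same sequenced clone, and their log2 ratios were 0.02, −0.0048 and 0.31, so the last of them stood apart by slightly more than the spread of 0.28 between probe sets. The dimmest was under the floor on both arrays. Crem, a CREB family gene whose short product ICER is induced by cyclic AMP and shuts the response off, read 231 and 230 by its brightest probe set and 128 and 125 by the second. Another read 14.8 and 7.73, the latter under the floor, and the dimmest was under the floor on both arrays. In the class of signal that holds Foxo1 and Crem, 92.7% and 97.8% of genes were at least as far apart.

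Sik1 encodes a kinase that CREB induces and that in turn holds the CRTC coactivators out of the nucleus. It read 63.8 in controls and 45.6 with diosgenin, a log2 ratio of −0.49, and 21.4% of genes of like signal were at least as far apart. Its second probe set was under the floor on both arrays. Irs2, the insulin receptor adaptor that insulin lowers and fasting restores, read 29.9 and 23.6 by its only probe set, a log2 ratio of −0.34 at a mean signal of 26.8, under the filter.

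**Figure D2:**
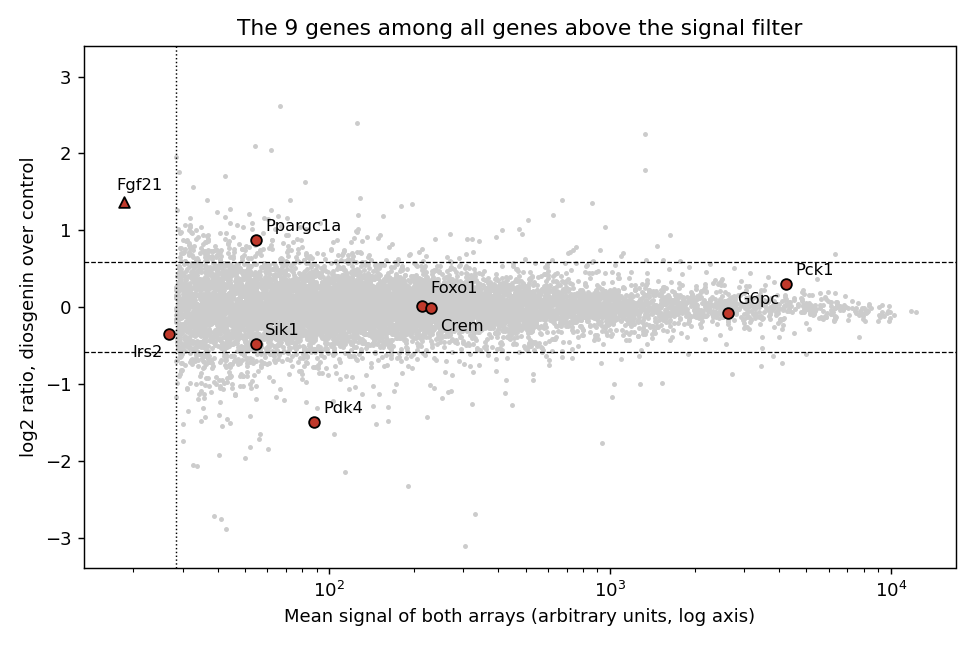
Log2 ratio (diosgenin over control) against mean signal (log axis, arbitrary units) for the 9732 genes above the filter (grey) and the 9 genes (red). Dashed lines mark 1.5-fold, the dotted line marks the filter of 28.4, and the triangle for Fgf21 is a lower bound; Ppargc1a at 0.88 and Pdk4 at −1.50 lie outside the dashed lines, and the other 5 genes above the filter lie between them.

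Close relatives of the genes were named whatever their values, and their differences from the 9 genes were not tested. Beside Pdk4, the kinases Pdk1 and Pdk2 were 1.29-fold and 1.25-fold higher, and Pdk3 was under the floor on both arrays. Ppargc1b, the other PGC-1 coactivator, was 1.10-fold lower at 139 and 127. G6pc3, the broadly expressed glucose 6-phosphatase, read 51.3 and 18.3, 2.80-fold lower at dim signals, while the mitochondrial enzyme Pck2 was under the filter at 24.4 and 21.2. The adaptor Irs1 was 1.01-fold lower. Foxo3 was 1.14-fold higher, with a median of −0.28 over its other probe sets, and Foxo4 read 99.2 and 99.6, with 0.41 for its other probe set. Sik2 was 1.54-fold higher at 91.5 and 141, although its other measured probe set had a log2 ratio of −0.10, and Sik3 was 1.07-fold higher. Creb1 was 1.12-fold higher.

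**Figure D3:**
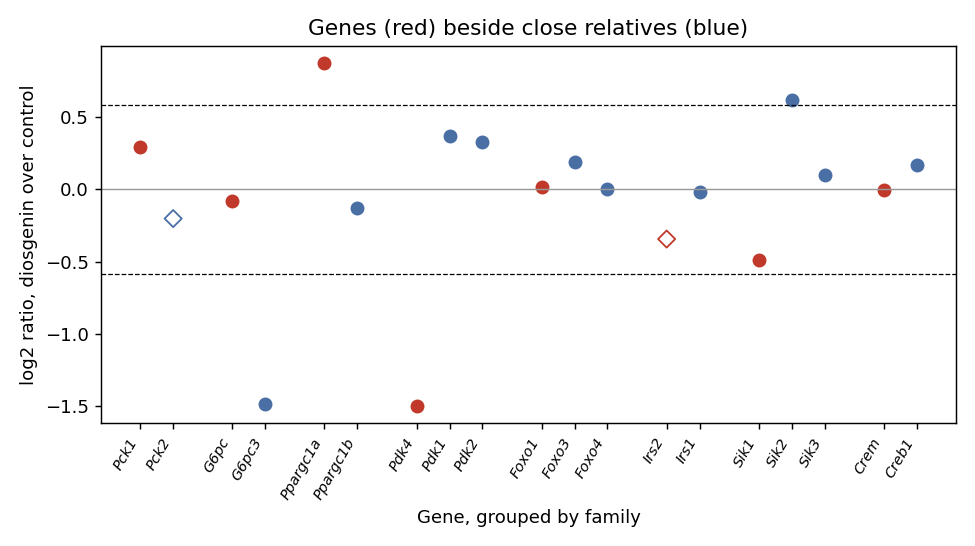
Log2 ratio (diosgenin over control) for 8 of the 9 genes (red) and their close relatives (blue), grouped by family, with dashed lines at 1.5-fold. Open diamonds are genes under the signal filter. Ppargc1a and Sik2 lie above the upper line and Pdk4 and G6pc3 below the lower one. Fgf21 and the relative Pdk3 are not shown.

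Other genes raised by fasting were mostly near the control. The list held 21 genes above the filter, besides the 9, with 14 higher and 7 lower. The median log2 ratio was 0.08 against −0.01 for all genes. At 1.5-fold, 2 were higher and 1 lower, where 2.84% and 3.61% of all genes above the filter were. These shares are the background for the counts of each list below as well. Got1, an aminotransferase of gluconeogenesis, was 1.67-fold higher at 688 and 1152, and the pantetheinase gene Vnn1 1.63-fold higher. Bcl6, a transcriptional repressor, was 2.79-fold lower at 238 and 85.6, and its second probe set had a log2 ratio of −1.48. Igfbp1, a much used reporter of lost insulin action, was 1.48-fold lower at 690 and 467. Cpt1a, the gate of mitochondrial fatty acid oxidation, was 1.16-fold higher.

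Genes raised by feeding were mostly slightly lower. Of 21 above the filter, 16 were lower and 5 higher, the median log2 ratio was −0.13, and none reached 1.5-fold in either direction. Angptl8, an insulin-induced regulator of lipoprotein lipase, was 1.37-fold lower at 307 and 224. Thrsp, a lipogenic protein, was 1.34-fold lower, though its other probe sets had a median of 0.42. Nr0b2, a corepressor, was 1.29-fold lower and the glycolytic enzyme Pklr 1.27-fold. Srebf1, the lipogenic transcription factor, was 1.13-fold lower and Fasn, fatty acid synthase, 1.23-fold. Among all genes above the filter, 4963 were lower and 4769 higher.

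The remaining steps of gluconeogenesis were split, 7 higher and 7 lower, around a median of 0.01. Beside Got1 and G6pc3, Gpd1, which converts between glycerol 3-phosphate and its ketone form, was 1.28-fold lower and the carboxylase Pcx 1.17-fold higher. The list of FOXO targets was split 7 higher to 10 lower, around a median of −0.08. Of these, 2 were at least 1.5-fold lower, Bcl6 and Gadd45a, a stress gene at 58.7 and 22.2, and none was 1.5-fold higher. The lipase Pnpla2 was 1.30-fold higher.

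The glucagon and cyclic AMP list was higher for 17 genes and lower for 6, around a median of 0.16. It mixes activators with brakes such as Pde4b, so these counts do not show which way signalling went. At 1.5-fold, 3 genes of the list were higher and none lower. They were Sik2 and the CREB coactivators Crtc1, at 45.3 and 76.9, and Crtc2, at 42.2 and 68.5. The other probe sets of Crtc1 had a median of −0.44 and that of Crtc2 a log2 ratio of 0.27, and both genes were dim. The phosphodiesterase Pde4b, which breaks down cyclic AMP, was 1.32-fold higher, with a median of −0.50 over its other probe sets.

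The insulin signalling list, which also mixes activators with brakes, was higher for 12 genes and lower for 16, around a median of −0.08. Gsk3b, a kinase that AKT inhibits, was 1.71-fold lower by its brightest probe set and had a median of −0.04 over 5 others. Tsc1, a brake on mTOR, was 1.41-fold lower by its brightest probe set, with a median of 0.08 over the others. The kinase Akt1 was 1.35-fold higher and the adaptor Grb10 1.27-fold lower. Only Gsk3b reached 1.5-fold in this list.

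Lists of partners were set up for Ppargc1a, Pdk4 and Fgf21. The PGC-1α list was higher for 10 genes and lower for 6, around a median of 0.03, with none at 1.5-fold, where the acetyltransferase Kat2a was 1.27-fold lower, the deacetylase Sirt1 1.26-fold higher, Pprc1 1.26-fold lower and Lpin1 1.24-fold higher. The pyruvate dehydrogenase list, which holds the complex that Pdk4 inhibits, was higher for 6 and lower for 4, around a median of 0.01, with none at 1.5-fold. Beside Pdk1 and Pdk2, its phosphatase regulator Pdpr was 1.11-fold higher by its brightest probe set, with a median of −0.27 over the others, and its subunit Pdhx 1.10-fold lower. The Fgf21 list, of its receptors and regulators, was higher for 8 and lower for 5, around a median of 0.11. In it the repressor Nr1d1 was 1.63-fold higher, the stress factor Ddit3 1.33-fold higher, the coreceptor Klb 1.20-fold higher and the receptor Fgfr1 1.20-fold lower, with a median of 0.27 over its other probe sets.

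**Figure D4:**
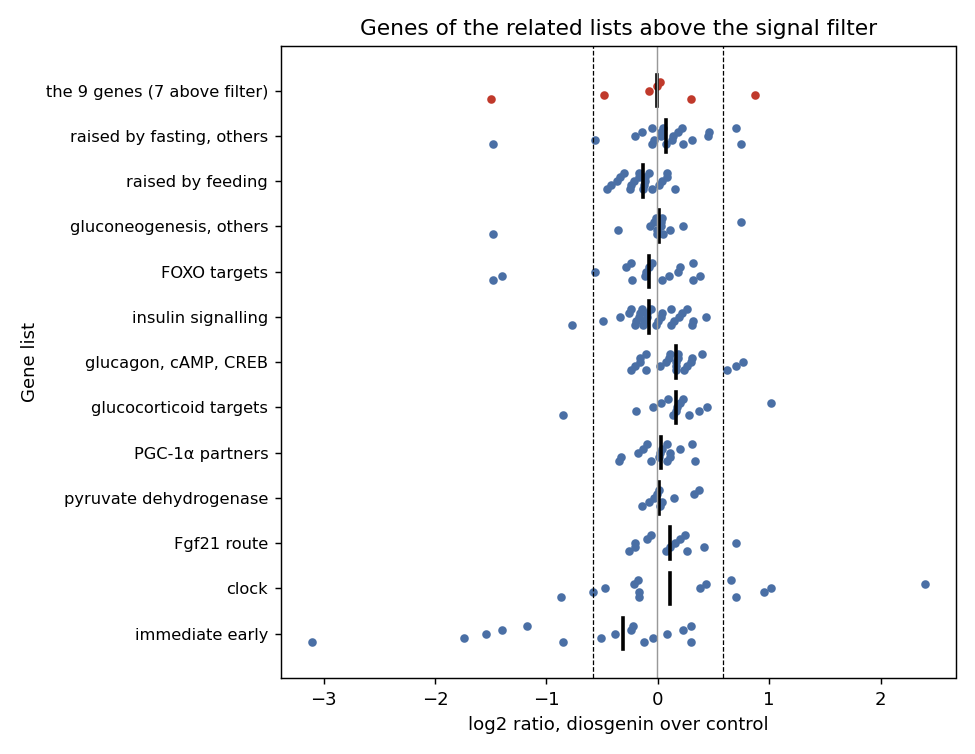
Log2 ratio (diosgenin over control) for each gene above the signal filter in the 9 genes (red) and in 12 related lists (blue), with black bars at list medians, a grey line at the median of all genes and dashed lines at 1.5-fold. The medians run from −0.32 for immediate early genes to 0.17 for glucocorticoid targets, and no gene raised by feeding lies outside the dashed lines.

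Several genes on the list of 9 also follow the hour of the day, glucocorticoids or acute stress. Some genes that report on these also differed between the same arrays. The 14 clock genes above the filter had 7 higher and 7 lower. Of these, 5 were at least 1.5-fold higher and 1 lower, against 2.84% and 3.61% of all genes. Dbp, a clock output factor, read 39.99 and 211, 5.27-fold higher. Per1, a clock repressor that CREB and glucocorticoids also induce, was 2.03-fold higher, Nr1d1 1.63-fold and Bhlhe40, a further repressor, 1.94-fold. Cry1 was 1.83-fold lower, whereas log2 ratios for Arntl, an activator, were −0.58 by one probe set and 0.08 by the other. Glucocorticoid targets were higher for 11 and lower for 3, around a median of 0.17. At 1.5-fold, 1 of these 14 was higher, Per1, which is also in the clock list. The 1 lower at 1.5-fold was the phosphatase Dusp1, at 1.80-fold, which is also in the immediate early list. The metallothionein Mt2 was 1.36-fold higher and Errfi1 1.29-fold higher, while Tat and Sgk1 had log2 ratios of 0.03 and −0.04. The 16 immediate early genes above the filter, which like Sik1 answer within minutes to signals, had 4 higher and 12 lower. Their median was −0.32, and 6 were at least 1.5-fold lower. Egr1 read 545 and 63.1, 8.63-fold lower. At dim signals, Fos read 61.6 and 21.2, 2.91-fold lower, and Csrnp1 read 46.3 and 13.9, 3.34-fold lower. The other Csrnp1 probe set had a log2 ratio of 0.20. The part of the hour of collection, of hormones and of handling in the ratios of the 9 genes was not tested.

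The tissue label was checked against marker genes. All 6 hepatocyte markers were above the filter on both pools, with summed signals of 54306 and 52017. In bulk liver, fewer cells of a type and less RNA per cell cannot be told apart. Summed signals of 6 endothelial markers were 1428 and 1047, of 6 Kupffer cell markers 1991 and 2141 and of 6 stellate cell markers 1922 and 2282. Within the endothelial sum, Clec4g read 745 and 464 with a log2 ratio of 0.46 by its other probe set. Lyve1 had a log2 ratio of −0.50, with −0.81 by its other probe set. Stab2 and Pecam1 had −0.27 and −0.23, while Kdr and Cdh5 had −0.06 and 0.03. Within the stellate cell sum, Dcn read 940 and 1217, with −0.16 for its other probe set. Col1a1, under the filter, had a log2 ratio of −0.86, with −0.51 for its other probe set. Col3a1, Lrat, Colec11 and Des had 0.02, 0.11, 0.20 and 0.37 by their brightest probe sets. Biliary markers, with 1 of 4 above the filter and Krt7 under the floor on both arrays, summed to 106 and 58.1, and lymphocyte markers, with 1 of 4 above it, to 96.2 and 132. Erythroid markers, with 1 of 3 above it, summed to 1334 and 1151. None of the measured markers of fat, muscle and kidney reached the filter, and of 3 pancreatic acinar markers, Cela1 alone did. No marker had a signal of 0. The part of cell makeup in the ratios of the 9 genes was not tested.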

How the data were processed

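The authors deposited array intensities on a linear scale, 1 signal per probe set, made with GCOS, the Affymetrix operating software, per the submitters' processing notes, which give no version. How signals were summarised, scaled or called detected is not given in the sources used here. The deposited intensities of both arrays had a 2% trimmed mean of 96.9, and their medians were 17.1 and 17.0. Per the labels' protocols, 5 µg aliquots of pooled RNA were labelled with biotin.

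Names came from the array's platform annotation: 34958 had 1 symbol, 932 several and 9211 none. The floor of 10.7 was the 40th percentile of all signals and the filter of 28.4 the 60th percentile of mean signals. With 1 array a diet there was no test, and the number of arrays limits the precision. The members, the lists and the rule for naming genes (all 9, their close relatives, known reporters of feeding, hour and stress, and up to 4 genes per list with the largest ratios) were chosen with earlier results of these data known. Ratios were tested on simulated data and the motif search on short typed sequences. The simulated noise scaled with the signal, so it did not mimic the wider spread of dim genes. Python 3.11.15, numpy 2.4.6 and pandas 2.3.3 were used. Alternatives were other floors, filters, probe set choices, scalings and a 2-fold threshold.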

Additional observations from a re-analysis of the deposited data

How the results depend on the processing

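Under 10 alternatives, 205 of 211 recomputed values stayed within the spread of 0.28 between probe sets, or within 1.5 times for counts. None reversed a ratio of 1.5-fold or more. Many values could not move, since other floors and filters leave bright probe sets as they are. Pck1 was 0.30 under each of these. The spread of 0.28 is also wider than most list medians, so small values could change sign and still count as unchanged. The gluconeogenesis median did so, from −0.0067 to 0.0275, as did Foxo1, from −0.0048 to 0.0257. The count of the 9 genes at least 1.5-fold higher was 2 without the signal filter, which let Fgf21 in, 0 with the filter at the 75th percentile, which left Ppargc1a out, and 0 at 2-fold, which Ppargc1a did not reach. The count at least 1.5-fold lower was 1 under all 10, with Pdk4 between −1.50 and −1.24 under the 9 that give ratios. Ppargc1a ranged from 0.67 to 0.89, Pck1 from 0.30 to 0.40, Irs2 from −0.34 to −0.07 and Fgf21 from 0.78 to 1.56. Fgf21 had a ratio under 6 alternatives only, and Irs2 under 7. The median of the clock list, 0.11, was 0.41 without probe sets ending in _x_at, _s_at or _a_at, 0.41 with the filter at the 75th percentile and −0.17 without the filter; the cause was not tested. Medians of genes raised by fasting, of genes raised by feeding, and of the insulin, glucagon, FOXO, glucocorticoid and immediate early lists kept their sign under the 9 alternatives that give medians, centring and quantile normalization included. No paired analysis was possible because each diet had 1 array. Dim signals limit Ppargc1a, Fgf21, Irs2 and Sik1 most.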
